A study of Mus musculus with 14 samples.

Results

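The 9 genes described here encode phosphatases, adaptors and a GTPase-activating protein that restrain signalling through the kinase ERK or its relatives. The genes are Dusp2, Dusp4, Dusp5, Dusp6, Dusp10, Spry1, Spry2, Spred1 and Rasa2. They were taken by symbol from 2 deposited tables of read counts, and all 9 of them were found among the 50508 gene symbols of each table. The libraries came from bulk RNA sequencing of sorted mouse cells. The study dealt with ILTCk, αβ T cells that are self-reactive, innate-like and equipped to kill, and with ILTCkP, the thymic progenitors of ILTCk. There were 5 groups of 2 libraries each. ILTCkP and CD8 single-positive thymocytes (CD8SP), both from C57BL/6 mice, made up the thymic table. The tumour table held 3 groups labelled retrogenic: ILTCk with NK1.1 (NK1.1+), ILTCk without it (NK1.1-), and PD1+ Tconv, which are conventional T cells that carry PD-1. In retrogenic mice the blood system is rebuilt from stem cells that carry an introduced T cell receptor (TCR) gene, while the receptor, the tumour model and the animals' age are details the labels leave out.

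When a T cell receptor is engaged, the small GTPase Ras switches on a chain of kinases, Raf, MEK and ERK, and ERK enters the nucleus and turns on genes. Dual-specificity phosphatases (DUSPs, also MAP kinase phosphatases) remove the activating phosphates from ERK and its relatives p38 and JNK, Sprouty and Spred proteins act upstream on Ras and Raf, and GTPase-activating proteins switch Ras off. Several of these genes are themselves induced by ERK activity and so form a negative feedback loop. Dusp2 and Dusp5 encode inducible nuclear phosphatases, Dusp5 acting on ERK, Dusp4 encodes another nuclear phosphatase, Dusp6 a cytoplasmic phosphatase specific for ERK, and Dusp10 one that prefers p38 and JNK.

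Promoter sequence was examined because several of these genes are known to be induced by ERK signalling. The sequences are RefSeq's on GRCm38.p6; 8 of the 9 genes had an entry (Dusp4 was not among them), and 6 motifs were searched on both strands in a window of 250 bases before to 50 bases after the gene start. Shown, for the genes on which the results turn, are the 150 bases before the RefSeq start (for Dusp5 the 114 of these that also lie before its GENCODE start, which is further upstream), read 5′ to 3′ on the gene's own strand, with motif matches in capitals.
Dusp5, chr19:53528995-53529108, plus strand: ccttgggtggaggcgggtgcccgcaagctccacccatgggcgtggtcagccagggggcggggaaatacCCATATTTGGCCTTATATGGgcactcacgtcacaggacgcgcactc
Dusp2, chr2:127336009-127336158, plus strand: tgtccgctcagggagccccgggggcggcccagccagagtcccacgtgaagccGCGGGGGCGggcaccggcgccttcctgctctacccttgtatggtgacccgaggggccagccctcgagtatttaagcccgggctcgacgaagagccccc
Spry2, chr14:105896820-105896969, minus strand: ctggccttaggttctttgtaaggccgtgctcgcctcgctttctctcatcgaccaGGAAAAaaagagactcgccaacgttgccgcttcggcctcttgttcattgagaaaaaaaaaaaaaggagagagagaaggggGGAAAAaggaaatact
The capitals in Dusp5 are 2 serum response elements (CArG boxes, the binding motif of serum response factor) that adjoin each other. Of all 32851 promoter windows of the same length 1.63% held at least 1 such element and 0.0183% (6 windows) held at least 2. The capitals in Dusp2 are an EGR site (GCGNGGGCG), found in 5.55% of windows, and those in Spry2 are 2 NFAT cores (GGAAAA), of which 23.4% of windows held at least 1 and 3.62% at least 2. Rasa2 held 1 NFAT core. No match to an ETS site (CCGGAAGT, 3.89% of windows), a CRE (TGACGTCA, 1.79%) or an AP-1 site (TGANTCA, 7.81%) lay in the 8 windows, and Dusp6, Dusp10, Spry1 and Spred1 held no match to any of the 6 motifs. A match is a description of these letters and not a site shown to be bound.

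Per the labels' protocols, thymic progenitors were gated on absent or dull CD4 and CD8α and on no binding of the CD1d reagent, NK1.1+ ILTCk as PD-1-negative NK1.1-positive CD8α+ TCRβ+ cells, and PD1+ Tconv as PD-1-positive NK1.1-negative CD8α+ TCRβ+ cells. No gate is stated there for NK1.1- ILTCk. The characteristics of both ILTCk groups read ILTCkP while their titles read ILTCk, and the titles were followed. The design text calls the libraries biological replicates without naming animals, so a p-value here reflects no more than the spread between these libraries, and that spread may be technical. Total counts ran between 16530085 and 32097301 per library. Coordinates are on GRCm38. Pdcd1 (chromosome 1, 94038305 to 94052553), which encodes PD-1, stood at 7.42 and 5.05 CPM (counts scaled to a common library total) in NK1.1+ ILTCk, 17.7 and 29.2 CPM in NK1.1- ILTCk and 753 and 518 CPM in PD1+ Tconv. Klrb1c (chromosome 6, 128778485 to 128789215), which encodes NK1.1, stood at 309 and 68.5 CPM in NK1.1+ ILTCk, 29.9 and 12.4 CPM in NK1.1- ILTCk and 39.5 and 2.35 CPM in PD1+ Tconv. Within the tumour table Pdcd1 was highest in both PD1+ Tconv libraries and Klrb1c in both NK1.1+ ILTCk libraries, though PD1+ Tconv replicate 1 held more Klrb1c than either NK1.1- ILTCk library. In the thymic table Pdcd1 stood at 1325 and 1269 CPM in ILTCkP and 24.3 and 26.9 CPM in CD8SP. Here and below CPM are scaled by the trimmed mean of M-values (TMM) within a table, and a level set beside one of the other table rests on separate scalings.

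Markers of T cells and of other cells were not level across the tumour groups. The 9 T cell markers, which include Cd3e and Lck, were all detected in every library and summed to 3063 and 652 CPM in NK1.1+ ILTCk, 1700.0 and 1204 CPM in NK1.1- ILTCk, and 5227 and 3461 CPM in PD1+ Tconv. The 12 macrophage and monocyte markers, also all detected in each library of the tumour table, summed to 6519 and 18640 CPM in NK1.1+ ILTCk, 3055 and 3011 CPM in NK1.1- ILTCk, and 157 and 1043 CPM in PD1+ Tconv. NK1.1+ ILTCk replicate 2 thus held the fewest T cell and the most macrophage transcripts. The 11 epithelial and mammary markers summed to between 6430.0 and 7064 CPM in NK1.1+ ILTCk, between 6526 and 10630 CPM in NK1.1- ILTCk and between 2431 and 2488 CPM in PD1+ Tconv. Bpifa2, a salivary gland gene, took 19.5% of all counts of PD1+ Tconv replicate 2. Summed over 9 salivary gland markers, that library stood at 299700 CPM and PD1+ Tconv replicate 1 at 1508 CPM. Both NK1.1- ILTCk libraries lay between these values, at 44410 and 10240 CPM. Among the NK1.1+ libraries, replicate 1 had 1196 CPM and replicate 2 had 10840 CPM. The largest salivary sum was thus in a PD1+ Tconv library, unlike the largest macrophage and epithelial sums. In the thymic table the macrophage sums were between 18.8 and 29.6 CPM in ILTCkP and between 20.4 and 23.4 CPM in CD8SP, and the salivary gland sums were at most 0.241 CPM. The 8 markers of double-positive thymocytes summed to 84.1 and 98.4 CPM in ILTCkP and to 5258 and 4509 CPM in CD8SP, a list that includes Cd4, Cd8a and Cd8b1, genes of the gate, and the 9 T cell markers to 7515 and 7196 CPM in ILTCkP and to 10750.0 and 9833 CPM in CD8SP. The part of these other transcripts in the results on the 9 genes was not tested.

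**Figure D1:**
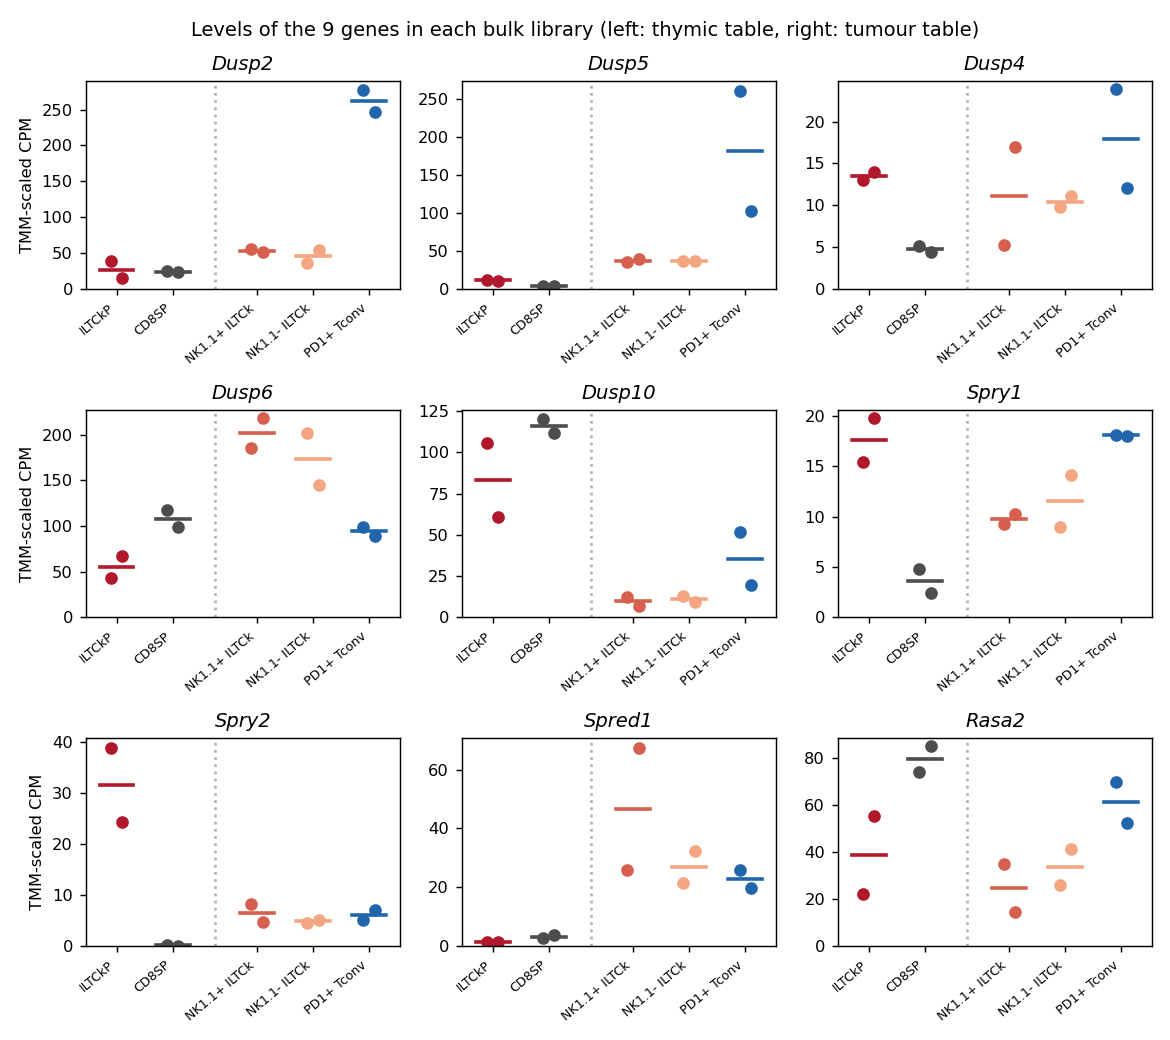
Level of each gene in TMM-scaled CPM (vertical axes, each from 0) in each bulk library; points are the 2 libraries of a group, lines their mean, and the dotted line parts the separately scaled thymic and tumour tables. Dusp2 and Dusp5 were highest in both PD1+ Tconv libraries, Spry2 in both ILTCkP libraries, and Dusp6 in the ILTCk libraries.

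The first comparison set ILTCkP against CD8SP. Spry2, which was near 0 in CD8SP, rose in ILTCkP, and Spry1, Dusp4 and Dusp5 lay higher in both progenitor libraries without passing the test. Dusp6, Dusp10, Spred1 and Rasa2 lay lower in both, also without passing it. Calls here are at an adjusted p under 0.05 in edgeR's quasi-likelihood test with Benjamini-Hochberg adjustment over 14634 genes. By that rule 1 of the 9 genes was called, where 4.71% of all genes tested were called. That gene was Spry2, whose call rests on a CD8SP group near 0. DESeq2 called 5 of the 9, where it called 13.8% of all genes, and limma-voom called 2 of the 9, where it called 5.58%. At an unadjusted edgeR p under 0.05 there were 5 of the 9, against 22.1% of all genes. The libraries of 8 of the 9 did not overlap between the groups, against 58.2% of all genes tested.

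Spry2 (chromosome 14, 105891947 to 105896819), an adaptor that dampens signals from receptors to Ras, had 984 and 794 counts in ILTCkP and 7 and 0 counts in CD8SP. On the CPM scale it stood at 38.8 and 24.3 in ILTCkP, against 0.241 and 0 in CD8SP. Its log2 fold change was 8.02 ± 1.00 (standard error, n = 2 each, edgeR adjusted p = 0.0151), the size being imprecise because it rests on the few CD8SP counts. The gene passed the low-count filter only through ILTCkP. With 1 library left out the fitted value lay between 7.0 and 12.89, the last without CD8SP replicate 1, which leaves 1 CD8SP library at 0 counts, so these fits are given as values and not as support for the call.

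Spry1 (chromosome 3, 37639947 to 37644598), its relative, stood at 15.4 and 19.7 CPM in ILTCkP, against 4.76 and 2.37 CPM in CD8SP. Both progenitor libraries were thus above both CD8SP libraries, as for Spry2, with a log2 fold change of 2.30 ± 0.47 that missed the threshold in edgeR (adjusted p = 0.0582) and passed it in DESeq2 (adjusted p = 0.000117) and limma-voom (adjusted p = 0.0369). Another Sprouty gene, Spry4, which is not among the 9, rose to 20.3 and 16.9 CPM in ILTCkP, against 4.07 and 2.12 CPM in CD8SP (2.59 ± 0.46, edgeR adjusted p = 0.0393). Spred1 (chromosome 2, 117121374 to 117182279) encodes a Sprouty-related protein that brings the Ras inactivator neurofibromin to the membrane. It was low in the thymus, at 1.46 and 1.35 CPM in ILTCkP and 2.76 and 3.61 CPM in CD8SP (-1.18 ± 0.54, edgeR adjusted p = 0.272).

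Among the phosphatase genes, Dusp5 (chromosome 19, 53529109 to 53542431) stood at 12.2 and 10.5 CPM in ILTCkP, against 3.86 and 3.32 CPM in CD8SP. The groups were apart, with a log2 fold change of 1.66 ± 0.39 (edgeR adjusted p = 0.0763, DESeq2 adjusted p = 0.00531). An antisense transcript overlaps Dusp5 on the opposite strand, and since the sources do not say whether the counting used strand, reads of the pair cannot be told apart. The same holds for Dusp10, Spry1 and Rasa2, each of which overlaps a gene on the opposite strand. Dusp4 (chromosome 8, 34807297 to 34819894) stood at 13.0 and 14.0 CPM in ILTCkP, against 5.14 and 4.43 CPM in CD8SP, a difference of much the same size (1.5 ± 0.36, edgeR adjusted p = 0.0818, DESeq2 adjusted p = 0.00702). Dusp2 (chromosome 2, 127336159 to 127338376) stood at 39.0 and 15.0 CPM in ILTCkP, against 24.4 and 23.9 CPM in CD8SP. Its progenitor libraries thus lay on either side of the CD8SP pair (0.16 ± 0.49, edgeR adjusted p = 0.870), and the value was -0.67 without ILTCkP replicate 1 and 0.69 without ILTCkP replicate 2.

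Dusp6 (chromosome 10, 99263231 to 99267489) went the other way, at 43.0 and 66.9 CPM in ILTCkP, against 117 and 98.9 CPM in CD8SP (-0.97 ± 0.30, edgeR adjusted p = 0.138, DESeq2 adjusted p = 0.0403). So the ERK-specific phosphatase genes lay in opposite directions against CD8SP, Dusp5 higher and Dusp6 lower in the progenitors, neither past edgeR's threshold. Dusp10 (chromosome 1, 184013302 to 184075636) stood at 105.9 and 60.8 CPM in ILTCkP, against 120.4 and 112 CPM in CD8SP (-0.48 ± 0.32, edgeR adjusted p = 0.422). Rasa2 (chromosome 9, 96539300 to 96631617), a GTPase-activating protein that switches Ras off, stood at 21.9 and 55.5 CPM in ILTCkP, against 74.1 and 85.2 CPM in CD8SP (-1.04 ± 0.46, edgeR adjusted p = 0.259). The ILTCkP libraries stood far apart in both Rasa2 and Dusp2, and with either left out edgeR called more genes overall. It called 6 of the 9 without ILTCkP replicate 1, where it called 17.9% of all genes tested, and 7 of the 9 without ILTCkP replicate 2, where it called 44.8%. In those fits the spread comes from the 2 CD8SP libraries alone, and the lone ILTCkP library is assumed to vary like them.

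Of 86 other genes of the pathway tested in the thymus, in 6 lists, edgeR called 8 (9.3%), against 4.71% of all genes. These lists were chosen with earlier results of the data known, so the 2 percentages are given as values and are no test of the pathway. Among the 8 is Mapk12, which was at 0 in both CD8SP libraries. Of the 20 genes of the Ras and ERK cascade none rose or fell by edgeR, with a median log2 fold change of -0.32 against 0.01 for all genes tested, 3 of the 20 having an unadjusted p under 0.05. Sos1, an activator of Ras, stood at 5.68 and 5.52 CPM in ILTCkP, against 10.5 and 14.1 CPM in CD8SP (edgeR adjusted p = 0.159). Of 18 transcripts known to respond to ERK 3 rose and none fell (median 0.76). They were Egr2, at 161 and 159 CPM in ILTCkP against 45.4 and 43.9 CPM in CD8SP (1.84 ± 0.22, edgeR adjusted p = 0.0121), the ETS factor gene Etv5, at 52.9 and 52.0 CPM in ILTCkP against 4.10 and 8.73 CPM in CD8SP (3.03 ± 0.45, edgeR adjusted p = 0.0240), and Nr4a1, at 627 and 435 CPM in ILTCkP against 178 and 181 CPM in CD8SP (1.56 ± 0.25, edgeR adjusted p = 0.0306). Of 17 other brakes on TCR signalling 1 rose, the phosphatase gene Ubash3b, at 262.5 and 337 CPM in ILTCkP against 23.7 and 25.5 CPM in CD8SP (3.61 ± 0.25, edgeR adjusted p = 0.00449).

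Of 9 further Sprouty, Spred and Ras GTPase-activating genes that were tested, Spry4 rose and Rasal1 fell, Rasal1 standing at 10.3 and 5.88 CPM in ILTCkP against 29.5 and 41.3 CPM in CD8SP (-2.13 ± 0.41, edgeR adjusted p = 0.0492). Of 11 other DUSP genes none was called (median -0.09), Dusp18 coming nearest at 5.36 and 4.69 CPM in ILTCkP against 0.172 and 0 CPM in CD8SP (edgeR adjusted p = 0.0513). That value rests on a CD8SP group near 0. Of 11 p38 and JNK pathway kinase genes 2 rose, both encoding p38 kinases: Mapk11, at 54.9 and 83.5 CPM in ILTCkP against 22.1 and 21.9 CPM in CD8SP (1.66 ± 0.32, edgeR adjusted p = 0.0465), and Mapk12, at 3.90 and 10.9 CPM in ILTCkP against 0 counts in both CD8SP libraries (edgeR adjusted p = 0.0231). Mapk12 passed the low-count filter only through ILTCkP, so that its call rests on a group at 0.

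**Figure D2:**
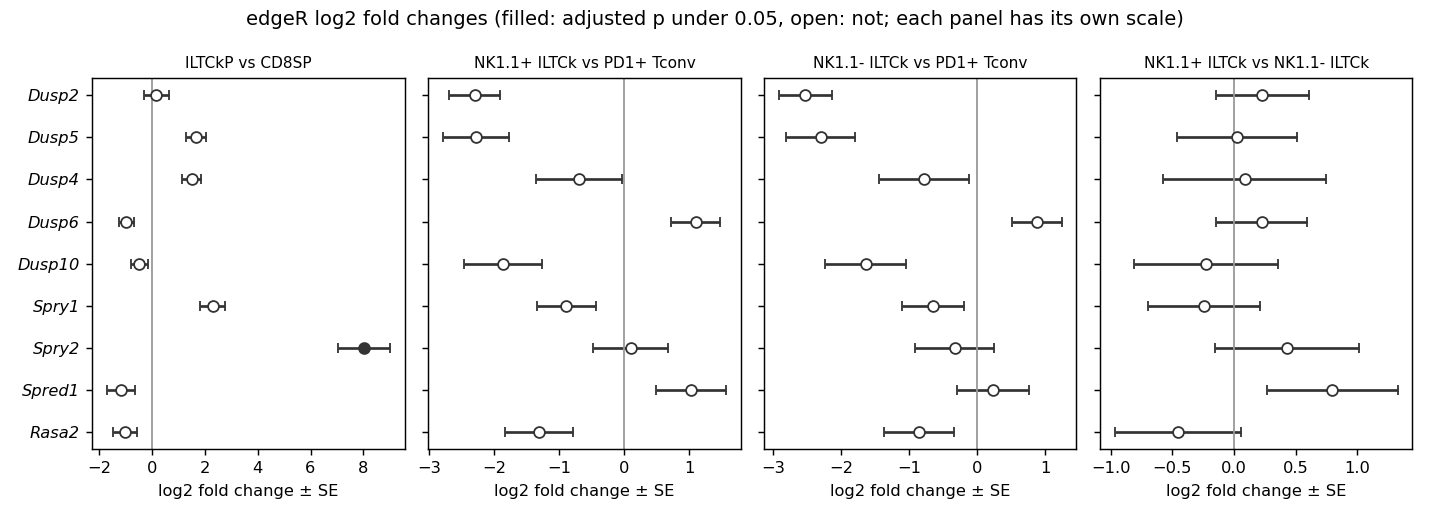
edgeR log2 fold changes (horizontal axes, with a scale of their own in each panel) of the 9 genes in the 4 comparisons; bars are standard errors, filled points passed an adjusted p under 0.05. Only Spry2 in ILTCkP against CD8SP is filled, and Dusp2 and Dusp5 lay lowest in both comparisons with PD1+ Tconv.

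The next comparisons set the ILTCk groups against PD1+ Tconv. They share the PD1+ Tconv libraries, so their values stand side by side and not as separate support. Dusp2, Dusp5 and Dusp10 stood lower and Dusp6 higher in every ILTCk library, and none of the 9 genes passed edgeR. That test, over 18091 genes with the spread of all 6 libraries, called 0% of genes in either comparison. At an unadjusted p under 0.05 it had 5 of the 9 in NK1.1+ ILTCk, against 14.3% of all genes (2590), and 3 of the 9 in NK1.1- ILTCk, against 11.9% of all genes (2147). DESeq2 called 2 of the 9, Dusp2 and Dusp5, in each comparison, against 6.92% of all genes in the NK1.1+ and 3.8% in the NK1.1- comparison. limma-voom called none of the 9, against 0.0166% of all genes (3) in the NK1.1+ comparison and 0% in the other.

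Dusp2 stood at 55.7 and 51.0 CPM in NK1.1+ ILTCk, 36.1 and 54.9 CPM in NK1.1- ILTCk, and 277 and 247 CPM in PD1+ Tconv. Its 4 ILTCk libraries were far below both PD1+ Tconv libraries and overlapped each other. The log2 fold change against PD1+ Tconv was -2.30 ± 0.39 for NK1.1+ ILTCk (edgeR adjusted p = 0.0974, DESeq2 adjusted p = 6.42e-06) and -2.53 ± 0.40 for NK1.1- ILTCk (edgeR adjusted p = 0.322, DESeq2 adjusted p = 1.81e-06). In bulk samples fewer cells of a type and less RNA per cell cannot be told apart, and the T cell marker sum was lower in each ILTCk library than in each PD1+ Tconv library. Per 1000 counts of the T cell markers, Dusp2 stood at 18.2 and 78.3 counts in NK1.1+ ILTCk, 21.2 and 45.6 counts in NK1.1- ILTCk, and 53.0 and 71.5 counts in PD1+ Tconv. On that scale NK1.1+ ILTCk overlapped PD1+ Tconv while both NK1.1- ILTCk libraries stayed below.

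Dusp5 stood at 34.8 and 39.8 CPM in NK1.1+ ILTCk, 36.7 and 36.6 CPM in NK1.1- ILTCk, and 260.2 and 102 CPM in PD1+ Tconv. The 4 ILTCk libraries lay close together, well below the PD1+ Tconv libraries, which were far apart from each other. Its log2 fold change against PD1+ Tconv was -2.28 ± 0.51 for NK1.1+ ILTCk (edgeR adjusted p = 0.151, DESeq2 adjusted p = 0.00176) and -2.31 ± 0.51 for NK1.1- ILTCk (edgeR adjusted p = 0.344, DESeq2 adjusted p = 0.00351). Without PD1+ Tconv replicate 1, the higher one, these were -1.44 and -1.46, and without PD1+ Tconv replicate 2 they were -2.84 and -2.84. Per 1000 T cell marker counts the libraries of all groups overlapped, at 11.4 and 61.0 counts in NK1.1+ ILTCk, 21.6 and 30.4 counts in NK1.1- ILTCk, and 49.8 and 29.5 counts in PD1+ Tconv.

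Dusp10 stood at 12.4 and 7.17 CPM in NK1.1+ ILTCk, 13.3 and 9.62 CPM in NK1.1- ILTCk, and 52.0 and 19.4 CPM in PD1+ Tconv, with log2 fold changes of -1.87 ± 0.60 and -1.64 ± 0.60 for NK1.1+ and NK1.1- ILTCk (edgeR adjusted p = 0.255 and 0.388). It lay below PD1+ Tconv in all 4 ILTCk libraries. Without PD1+ Tconv replicate 1 the values were -0.97 and -0.74, and without PD1+ Tconv replicate 2 they were -2.44 and -2.19. Dusp4 did not separate NK1.1+ ILTCk (5.23 and 17.0 CPM) from PD1+ Tconv (23.9 and 12.1 CPM), and the NK1.1- ILTCk libraries (9.78 and 11.1 CPM) lay just below it. Its log2 fold changes were -0.70 ± 0.66 for NK1.1+ ILTCk and -0.79 ± 0.66 for NK1.1- ILTCk (edgeR adjusted p = 0.689 and 0.663). For NK1.1+ ILTCk the value was -0.08 without NK1.1+ ILTCk replicate 1, -1.78 without NK1.1+ ILTCk replicate 2 and -0.10 without PD1+ Tconv replicate 1, and for NK1.1- ILTCk it was -0.19 without PD1+ Tconv replicate 1. Without PD1+ Tconv replicate 2 the Dusp4 values were -1.14 for NK1.1+ ILTCk and -1.21 for NK1.1- ILTCk.

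Dusp6 was the phosphatase gene that stood higher in ILTCk, at 186 and 219 CPM in NK1.1+ ILTCk, 202 and 144 CPM in NK1.1- ILTCk, and 99.1 and 89.5 CPM in PD1+ Tconv. Each ILTCk library was above both PD1+ Tconv libraries. Per 1000 T cell marker counts Dusp6 stood at 60.6 and 335 counts in NK1.1+ ILTCk and 119 and 120 counts in NK1.1- ILTCk. In PD1+ Tconv it stood at 19.0 and 25.9 counts. The order on that scale follows from the higher CPM and lower T cell marker sum of each ILTCk library, and is no separate support. The log2 fold changes were 1.1 ± 0.37 for NK1.1+ ILTCk (edgeR adjusted p = 0.272) and 0.88 ± 0.37 for NK1.1- ILTCk (edgeR adjusted p = 0.420), and Dusp6 was not called by DESeq2. The macrophage and epithelial marker sums were also higher in each of these libraries than in each PD1+ Tconv library, and their part in the level of Dusp6 was not tested.

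**Figure D3:**
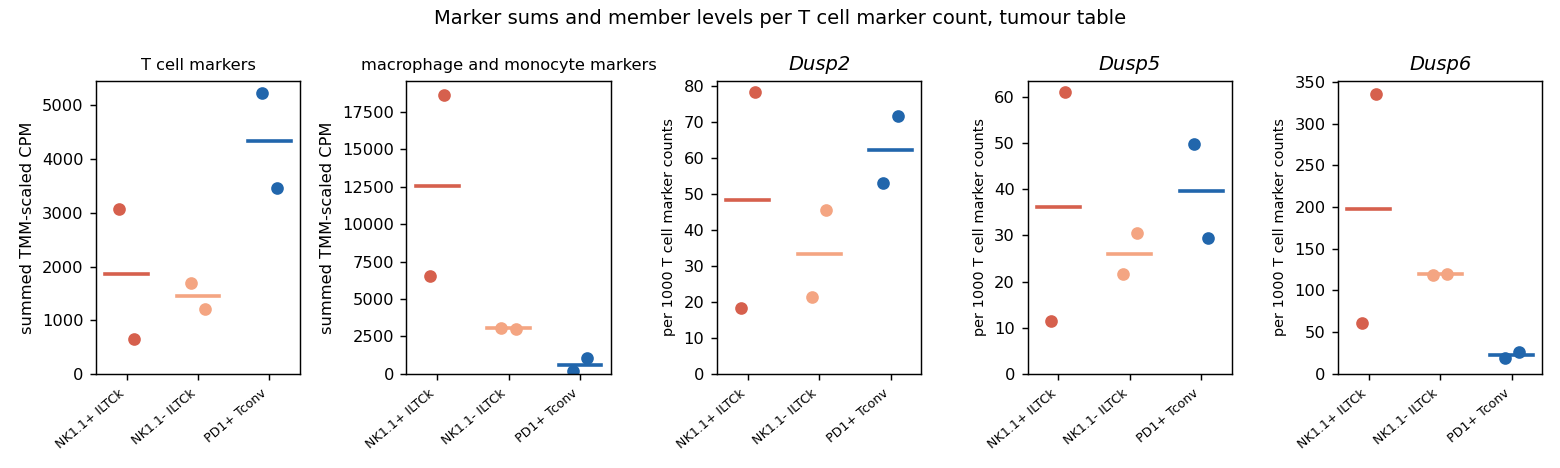
Tumour table: summed TMM-scaled CPM of the T cell and of the macrophage and monocyte markers (2 left panels), and Dusp2, Dusp5 and Dusp6 per 1000 T cell marker counts (3 right panels); points are libraries, lines the mean of 2. NK1.1+ ILTCk replicate 2, with 652 CPM of T cell and 18640 CPM of macrophage markers, gives the highest point of each right panel.

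The Sprouty genes differed less in the tumour table. Spry1 stood at 9.29 and 10.2 CPM in NK1.1+ ILTCk, 8.95 and 14.1 CPM in NK1.1- ILTCk, and 18.1 and 18.0 CPM in PD1+ Tconv. All ILTCk libraries lay below PD1+ Tconv, with log2 fold changes of -0.89 ± 0.46 for NK1.1+ ILTCk and -0.64 ± 0.46 for NK1.1- ILTCk (edgeR adjusted p = 0.434 and 0.605). Spry2 stood at 8.27 and 4.69 CPM in NK1.1+ ILTCk, 4.55 and 5.06 CPM in NK1.1- ILTCk, and 5.16 and 6.97 CPM in PD1+ Tconv, the first of these groups overlapping the last. Its log2 fold changes were 0.10 ± 0.58 and -0.33 ± 0.58 (edgeR adjusted p = 0.962 and 0.859), both smaller than their errors.

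Upstream of ERK, Rasa2 stood at 34.8 and 14.5 CPM in NK1.1+ ILTCk, 26.2 and 41.4 CPM in NK1.1- ILTCk, and 70.0 and 52.3 CPM in PD1+ Tconv. The ILTCk libraries all lay below PD1+ Tconv (-1.31 ± 0.52 for NK1.1+ ILTCk and -0.86 ± 0.52 for NK1.1- ILTCk, edgeR adjusted p = 0.325 and 0.543), the first value being -2.07 without NK1.1+ ILTCk replicate 1 and -0.81 without NK1.1+ ILTCk replicate 2. Spred1 stood at 25.9 and 67.5 CPM in NK1.1+ ILTCk, 21.4 and 32.3 CPM in NK1.1- ILTCk, and 25.8 and 19.8 CPM in PD1+ Tconv. Its high value was in NK1.1+ ILTCk replicate 2, the library with the most macrophage transcripts, and the log2 fold changes were 1.03 ± 0.54 for NK1.1+ ILTCk and 0.23 ± 0.53 for NK1.1- ILTCk (edgeR adjusted p = 0.437 and 0.897). Without that library the value in NK1.1+ ILTCk was 0.19. In all, 7 of the 9 genes did not overlap between NK1.1+ ILTCk and PD1+ Tconv and 8 of the 9 between NK1.1- ILTCk and PD1+ Tconv, against 41.5% and 45.8% of all genes.

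The values of Dusp2 and Dusp5 moved with the scaling. With libraries scaled to the T cell marker sum in place of TMM, the median log2 fold change of all genes against PD1+ Tconv moved to 1.89 for NK1.1+ ILTCk and 1.53 for NK1.1- ILTCk. Dusp2 was then at -0.37 and -0.90 (edgeR adjusted p = 0.822 and 0.598), and Dusp5 at -0.13 and -0.61 (edgeR adjusted p = 0.935 and 0.711). Relative to that median, Dusp2 lay at -2.25 for NK1.1+ ILTCk and -2.42 for NK1.1- ILTCk, and Dusp5 at -2.02 and -2.14. Taking off the median largely undoes the scaling, so these values lie near those with TMM and are no separate support. Dusp4, Spry1 and Rasa2 turned to positive values in both comparisons on this scale before that median was taken off.

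Genes around the 9 in the pathway gave no edgeR call against PD1+ Tconv. For the Ras and ERK cascade the median log2 fold change was -0.25 for NK1.1+ ILTCk and -0.52 for NK1.1- ILTCk, against -0.04 for all genes in each, with 13 and 18 of 20 genes below 0. Among all 18091 genes, 8772 and 8646 lay above 0 in these comparisons. Braf, a Raf kinase gene, stood at 12.4 and 7.49 CPM in NK1.1+ ILTCk, against 38.2 and 26.2 CPM in PD1+ Tconv (edgeR adjusted p = 0.200). Rasgrp2, an activator of Ras-family GTPases, stood at 7.77 and 5.38 CPM in NK1.1- ILTCk, against 37.9 and 26.8 CPM in PD1+ Tconv (edgeR adjusted p = 0.361). Other brakes on TCR signalling had medians of -0.45 for NK1.1+ ILTCk and -1.17 for NK1.1- ILTCk, and Tnfaip3, an inhibitor of NF-κB signalling, stood at 132 and 157 CPM in NK1.1+ ILTCk, 133 and 189 CPM in NK1.1- ILTCk and 1014 and 365 CPM in PD1+ Tconv.

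Of the 18 ERK-responsive transcripts tested, 12 had values above 0 in each ILTCk group, with medians of 0.47 for NK1.1+ ILTCk and 0.11 for NK1.1- ILTCk. Over all 18091 genes tested, 8772 had values above 0 for NK1.1+ ILTCk and 8646 for NK1.1- ILTCk. Egr2 stood at 41.1 and 107 CPM in NK1.1+ ILTCk, against 19.4 and 12.8 CPM in PD1+ Tconv (2.20 ± 0.57, edgeR adjusted p = 0.186), and Fos at 879 and 1980.0 CPM in NK1.1+ ILTCk, 1422 and 1528 CPM in NK1.1- ILTCk and 372 and 632 CPM in PD1+ Tconv. Fosl2, a relative of Fos, lay the other way, at 31.8 and 32.2 CPM in NK1.1- ILTCk against 136 and 52.0 CPM in PD1+ Tconv (-1.56 ± 0.54, edgeR adjusted p = 0.373). Fos is also a gene of cell dissociation stress and itself 1 of the 9 stress markers, so their sum is partly Fos. The sum ran from 4409 to 9477 CPM in NK1.1+ ILTCk and from 5419 to 7417 CPM in NK1.1- ILTCk. In PD1+ Tconv it ran from 4136 to 6342 CPM. The other DUSP genes had medians of 0.63 and 0.30 in the NK1.1+ and NK1.1- comparisons, with Dusp22 at 15.9 and 29.0 CPM in NK1.1+ ILTCk against 9.11 and 6.89 CPM in PD1+ Tconv (edgeR adjusted p = 0.309), and Dusp16 at 28.9 and 37.1 CPM in NK1.1- ILTCk against 9.71 and 13.9 CPM in PD1+ Tconv (edgeR adjusted p = 0.361). The other Sprouty, Spred and Ras GTPase-activating genes had medians of -0.09 and 0.31, and p38 and JNK pathway kinases 0.01 and -0.03.

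The last pairwise comparison set NK1.1+ against NK1.1- ILTCk. All 9 genes overlapped between these groups, where the libraries of 37.5% of all genes did not, and none was called by edgeR (0% of genes) or by DESeq2 (0.315% of genes). None of the 9 had an unadjusted edgeR p under 0.05, against 3.94% of all genes (712). The differences ran from -0.45 ± 0.51 for Rasa2 to 0.80 ± 0.53 for Spred1 on the log2 scale. Dusp5 was at 0.02 ± 0.49 and Dusp2 at 0.23 ± 0.37, both smaller than their errors. The macrophage sum, in contrast, differed between the groups without overlap.

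A joint fit over the 10 libraries tested whether the difference between ILTCk and conventional cells was itself different in tumour and thymus, as NK1.1+ ILTCk over PD1+ Tconv minus ILTCkP over CD8SP, an arrangement in which a constant offset between the tables cancels. edgeR called Dusp5 and Spry2 among the 9 genes, both lower, where it called 0.611% of 19488 genes in all and 0.457% as lower. Dusp5 stood at -3.80 ± 0.62 (edgeR adjusted p = 0.0369), from a log2 value of -2.28 for NK1.1+ ILTCk over PD1+ Tconv and of 1.66 for ILTCkP over CD8SP in the separate fits, neither of which was called. Spry2 stood at -7.77 ± 1.31 (edgeR adjusted p = 0.0418). It was higher in ILTCkP than in CD8SP, where it was near 0, while NK1.1+ ILTCk and PD1+ Tconv overlapped. Both calls are near the threshold. limma-voom did not call Dusp5 (adjusted p = 0.0903), and most fits with 1 library left out called neither gene. In those fits Dusp5 ran from -4.34 to -3.13 and Spry2 from -12.43 to -6.76. Dusp5 was called only without a PD1+ Tconv library, and the 2 libraries of that group were far apart, a spread such a fit cannot use. Spry2 was called only without CD8SP replicate 1 (-12.43), which leaves 1 CD8SP library at 0 counts. These fits are given as values and not as support for the calls.

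Of the remaining 7 genes in the joint fit of all 10 libraries, Dusp6 was at 2.22 ± 0.49 (edgeR adjusted p = 0.0876) and Spry1 at -3.05 ± 0.69 (edgeR adjusted p = 0.0945), both called by DESeq2, which called 5 of the 9 and 4.56% of all genes (adjusted p = 0.00232 for Dusp6 and 0.000418 for Spry1). DESeq2 called Dusp2 too (adjusted p = 0.0202), and limma-voom called Spry2 alone of the 9, where it called 0.298% of all genes. The sign of the Dusp6 value was opposite to that of Dusp5. Dusp2 (-2.32 ± 0.61), Spred1 (2.37 ± 0.72) and Dusp4 (-2.04 ± 0.86) had unadjusted p-values under 0.05 and adjusted edgeR p-values of 0.146, 0.217 and 0.394. Dusp10 (-1.25 ± 0.72) and Rasa2 (-0.14 ± 0.74) did not reach that either. In all, 7 of the 9 were under an unadjusted 0.05, against 11.8% of all genes. Of 12 macrophage markers 1 was called higher in this contrast, with a median log2 value of 2.96, and their part was not tested.

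**Figure D4:**
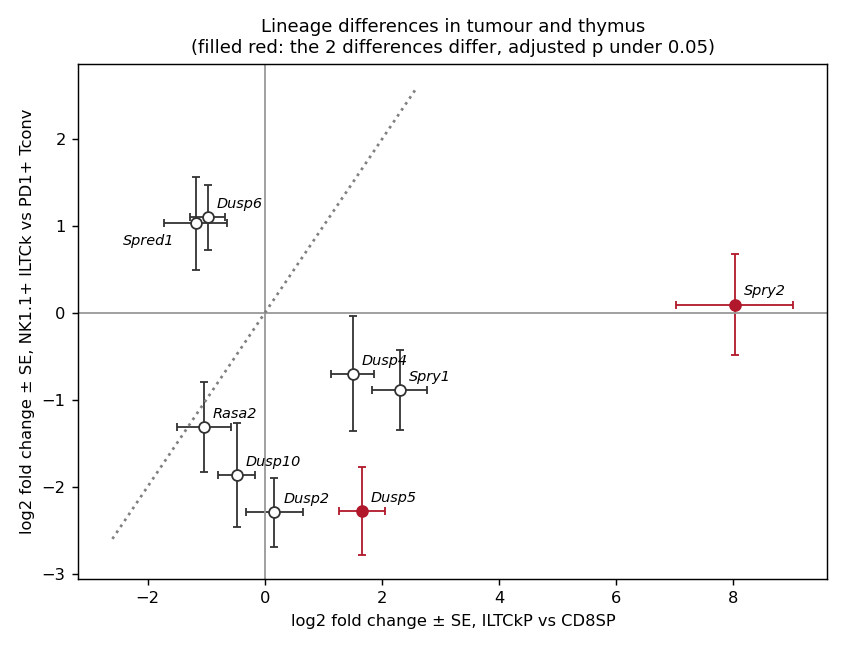
edgeR log2 fold changes ± standard error of the 9 genes, NK1.1+ ILTCk against PD1+ Tconv (vertical axis) over ILTCkP against CD8SP (horizontal axis); the dotted line marks equal values. Dusp5 and Spry2, filled in red, were called in the test of the difference, and Dusp6 and Spred1 sit alone at the upper left.

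Per kilobase of exon, which allows levels of different genes to be compared, the leading gene was Dusp10 in the thymic groups, Dusp6 in tumour ILTCk and Dusp2 in PD1+ Tconv. In ILTCkP Dusp10 (27.4 CPM per kb) and Dusp6 (17.5) came first, followed by Spry2 (15.1) and Dusp2 (13.5), and each of these overlapped the next. In CD8SP Dusp10 (38.2) and Dusp6 (34.5) led, overlapping each other, and Spry2 was last at 0.0578. Spry2 made up 16.5% of the summed level of the 9 genes per kilobase in ILTCkP and 0.0611% in CD8SP. Dusp6 led in both tumour ILTCk groups, with 64.5 CPM per kb (50.2% of the summed level) for NK1.1+ ILTCk and 55.2 (49.0%) for NK1.1- ILTCk, ahead of Dusp2 (26.6 and 22.7) and Dusp5 (15.1 and 14.8), each of which its neighbours in the order did not overlap. In PD1+ Tconv Dusp2 came first with 131 CPM per kb (48.7%) and Dusp5 next with 73.2 (27.2%), ahead of Dusp6 at 30.1 (11.2%), and these 3 did not overlap between libraries. Exon lengths are the union of the exons in GENCODE M21.

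**Figure D5:**
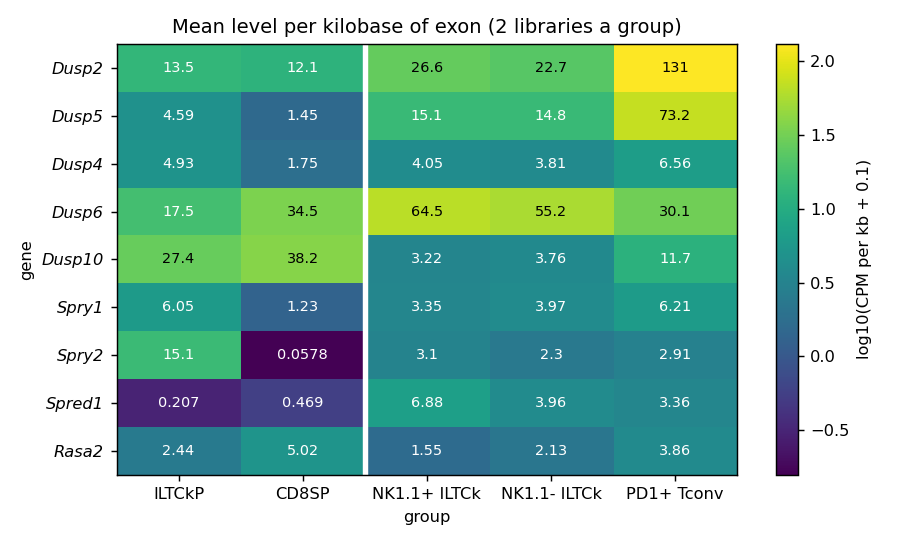
Mean level of each gene (rows) in each group (columns) in TMM-scaled CPM per kilobase of exon, printed in each cell, the colour giving log10 of that level plus 0.1; the white line parts the 2 tables. Dusp6 leads in both tumour ILTCk groups (64.5 and 55.2), Dusp2 in PD1+ Tconv (131) and Dusp10 in both thymic groups (27.4 and 38.2).

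For each of the 9 genes the genes of most similar pattern were sought over the 10 libraries, by Pearson's r of log2(CPM + 1) centred within each table, among 7920 genes. These are descriptions, since the libraries fall into groups and each r is the highest of many. Dusp5 went most closely with Lpin1 (r = 0.981) and Lnx2 (0.963), Dusp2 with Ankrd11 (0.968) and Tnrc6c (0.962), and Dusp10 with the perforin gene Prf1 (0.983) and Hdac7 (0.970). Dusp4 was most like Rbms2 (0.946) and Junb (0.928), and Dusp6 most like Cdip1 (0.945) and Atp6ap2 (0.944). For Spry1 the nearest were Id2 (0.954) and Eno3 (0.939), for Spry2 Spns3 (0.979) and S100a6 (0.974), for Spred1 Irgm2 (0.932) and Snhg15 (0.916), and for Rasa2 Creb1 (0.990) and Ttc14 (0.984).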

How the data were processed

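The values are whole-number counts of reads per gene symbol in 2 tables deposited by the authors. The build mm10 and the tool DESeq are named in the submitters' processing notes; aligner, counter and annotation: not given in the sources used here. The 4 single-cell libraries were not analysed here. From the counts, each table was fitted apart with edgeR 4.0.16 (R 4.3.3): filterByExpr, TMM scaling, glmQLFit with robust estimation, glmQLFTest and Benjamini-Hochberg adjustment over all genes tested, a gene being called below 0.05 whatever its fold. Standard errors are the log2 fold change over the root of its F statistic. All 6 tumour libraries shared 1 estimate of spread, and the lineage contrast came from a joint fit of 10 libraries.

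Alternatives were RLE and upper-quartile scaling, scaling to the T cell markers, DESeq2 1.42.0, limma-voom (limma 3.58.1), no filter, at least 50 counts in 2 libraries, a replicate block, fits on just the tumour groups compared, and leaving out each library in turn. Gene coordinates and exon lengths came from GENCODE M21 on GRCm38, in which 47653 of 50508 symbols were found, and promoters from RefSeq on GRCm38.p6. The tests were tested on simulated data. The 9 genes, the lists and the tests were chosen with earlier results of these data known. Text names the 9 genes, Klrb1c and Pdcd1 as sort checks, up to 4 called genes of each pathway list (where none was called, some of the 2 with the smallest p), and the 2 genes of most similar pattern for each of the 9, with predicted genes and receptor segments left out. Depth was between 16530085 and 32097301 counts per library, and with 2 libraries a group the precision is set by their spread. Mitochondrial genes were at 0 counts throughout.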

Additional observations from a re-analysis of the deposited data

Results flagged for a closer look

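The joint edgeR test over 10 libraries called 2 of the 9 genes, where it called 0.611% of all genes. For these the difference between NK1.1+ ILTCk and PD1+ Tconv itself differed from that between ILTCkP and CD8SP. Tissue, mouse type and the conventional cells of reference change together between the 2 differences and cannot be told apart. For Dusp5 that difference of differences was -3.80 on the log2 scale: its level against the conventional cells was lower in NK1.1+ ILTCk from tumours and higher in ILTCkP from the thymus. For Spry2 it was -7.77, the gene being near 0 in CD8SP and at overlapping levels in NK1.1+ ILTCk and PD1+ Tconv. Both calls were near the threshold (edgeR adjusted p = 0.0369 for Dusp5 and 0.0418 for Spry2). Most fits with 1 library left out called neither gene, and limma-voom did not call Dusp5 (adjusted p = 0.0903). The fits that did call Dusp5 lacked 1 of the 2 PD1+ Tconv libraries, which were far apart. The fit that did call Spry2 left 1 CD8SP library at 0 counts. Such fits are no support for the calls. With T cell marker scaling, Dusp5 in NK1.1+ ILTCk against PD1+ Tconv was at -0.13, in place of -2.28.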

How the results depend on the processing

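With 2 libraries a group, counts of calls depended on the test. In ILTCkP against CD8SP the share of all genes called was 4.71% with edgeR, 13.8% with DESeq2 and 5.58% with limma-voom. limma-voom called 816 genes there, and the fit with at least 50 counts in 2 libraries called 814. The tests, filters and block that called more of the 9 genes there than the main fit also called more genes in all. A higher count among the 9 is thus no separate support. edgeR called 689 genes in ILTCkP against CD8SP, where DESeq2 called 2022, the unfiltered fit 2535 and the replicate block 2212, and leaving out 1 library gave 592 to 7017. Of the 9 genes 1 was called there, and 2 with at least 50 counts in 2 libraries, 5 with DESeq2, 2 with limma-voom, 6 unfiltered, 6 with the replicate block and 1 to 7 with 1 library left out. In NK1.1+ ILTCk against PD1+ Tconv the 0 genes called became 1251 with DESeq2, 3 with limma-voom, 1249 unfiltered, 755 with the replicate block, 802 with T cell marker scaling and 0 to 35 with 1 library left out, and of the 9 genes DESeq2 called 2, the unfiltered fit 3 and the replicate block 2. In NK1.1- ILTCk against PD1+ Tconv the 0 became 688 with DESeq2, 799 unfiltered, 298 with the replicate block and 52 with T cell marker scaling, and of the 9 genes 2 were called by DESeq2, 2 unfiltered and 2 with the block. In NK1.1+ against NK1.1- ILTCk, DESeq2 called 57 genes and the unfiltered fit 167. For the lineage contrast the 119 became 888 with DESeq2, 58 with limma-voom, 1139 unfiltered, 212 with the replicate block and 5 to 135 with 1 library left out, and the 2 of 9 became 5, 1 and 5 with the first 3 of these and 0 to 1 with 1 library left out. The cause was not tested.

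Signs turned as follows (log2). With T cell marker scaling, which moved the median of all genes by 1.89, 1.53 and 0.36, NK1.1- ILTCk against PD1+ Tconv gave 0.0223 for Dusp10, 0.894 for Dusp4, 0.803 for Rasa2, 0.973 for Spry1 and 1.20 for Spry2, NK1.1+ ILTCk against PD1+ Tconv gave 1.78 for Dusp4, 0.238 for Rasa2 and 1.1 for Spry1, and NK1.1+ against NK1.1- ILTCk gave 0.131 for Spry1. limma-voom gave -0.0284 for Dusp2 in the thymus and -0.138 for Dusp4 between the ILTCk groups, where upper-quartile scaling gave -0.0123 for Dusp4 and -0.0634 for Dusp5. Leaving out 1 library, the values between NK1.1+ and NK1.1- ILTCk ran from -0.675 to 0.116 for Dusp10, -0.038 to 0.531 for Dusp2, -1.0 to 0.699 for Dusp4, -0.0772 to 0.117 for Dusp5, -0.0313 to 0.488 for Dusp6, -1.22 to 0.0416 for Rasa2, -0.0533 to 1.33 for Spred1, -0.533 to 0.0883 for Spry1 and -0.0339 to 0.781 for Spry2. Elsewhere they ran from -0.673 to 0.691 for Dusp2 in the thymus, -0.859 to 0.691 for Rasa2 in the lineage contrast, -0.0612 to 0.507 for Spred1 in NK1.1- ILTCk and -0.356 to 0.457 for Spry2 in NK1.1+ ILTCk, both against PD1+ Tconv. Of 657 values of the 9 genes under alternatives, these were the 31 whose sign turned.

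Libraries share replicate numbers across groups, and deviations of same-numbered libraries correlated across genes at 0.192 in the thymus and 0.364 to 0.408 in the tumour table. With 2 numbers and no label saying what they mark, the block is no stated pairing.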
